A study of Mus musculus with 4 samples.

Results

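Expression of 10 genes of the Notch pathway was followed in mouse embryonic fibroblasts with and without Med1: the receptor genes Notch1, Notch2, Notch3 and Notch4, the ligand genes Jag1, Jag2 and Dll1, the glycosyltransferase gene Lfng and the target genes Hes1 and Hey1. They were chosen by name, and every probe set annotated to one of them was taken, which gave 17 probe sets for 10 of the 12393 genes on the array. Of these, 7 genes had 2 probe sets, and Dll1, Hes1 and Hey1 had 1. The cells were 2 samples labelled Med1-/- p53-/- and 2 labelled Med1+/+ p53-/-, each hybridised to 1 Affymetrix array. Both genotypes thus lacked p53, and they came from C57BL/6J embryos at E10.0 out of 1 mating of a Med1+/- p53-/- male with a Med1+/- p53+/- female. The cells were grown in DMEM with 10% fetal calf serum. Mediator, of which Med1 is 1 subunit, carries signals from transcription factors on DNA to RNA polymerase II. The labels do not say that the samples of a genotype were separate cultures or embryos, so the p-values measure the spread among these samples only, and it may be technical. The loss of Med1 and any other difference between the embryos of the genotypes cannot be told apart.

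Notch proteins are receptors that are activated by ligands of the Jagged and Delta-like families on a neighbouring cell. Ligand binding lets proteases release the intracellular part of the receptor, which enters the nucleus, joins the DNA-bound protein RBPJ and a Mastermind-like coactivator, and switches on genes such as those of the Hes and Hey repressors. Fringe enzymes add sugars to the receptor and so set which ligands it answers to. In mesenchyme and in stromal cells the pathway is known for its part in cell fate choice, and in blood vessels for the maturation of mural cells.

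Med1 itself followed the labels. On its brightest probe set, 1448708_at, the normalized intensity was 47.1 and 53.0 in Med1-/- cells, against 631 and 591 in Med1+/+ cells, an 11.9-fold difference. Of the 6 Med1 probe sets, 3 passed as lower in the fit of every probe set; the other 3 were dim and had log2 changes of -1.02, -0.30 and -1.52, the genotypes overlapping on the one at -0.30. The deposited intensities did not share a scale: the array medians were 36.1 and 51.4 in Med1-/- cells and 76.3 and 107 in Med1+/+ cells. All normalized intensities below are quantile normalized, and log2 values are log2(normalized intensity + 1.7). They place a gene relative to the other genes of its array, and the number of arrays limits their precision. The mesenchymal markers Vim, Col1a2 and Col3a1, the brightest of their list, were at 3160 or above in rounded normalized intensity on all arrays, while other markers of the list, Pdgfra, Prrx1 and S100a4, had log2 changes of -2.95, -2.89 and -2.68. Between them the genotypes differed widely: 75.3% of the 8923 features tested passed an adjusted p of 0.05, 39.1% higher and 36.2% lower in Med1-/- cells (limma with Benjamini-Hochberg adjustment).

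Against this background, 5 of the 10 Notch genes were higher in Med1-/- cells on their brightest probe set: Lfng, Jag2, Notch2, Notch1 and Hes1. Of these, Notch1 and Hes1 had log2 changes below 0 in the values as deposited and on both control-based scales. Notch2 was below 0 on the Bacillus subtilis control scale. For Jag2 the second probe set was lower, with a log2 change of -1.63 (adjusted p = 0.0236, limma fit of every probe set). The 5 genes were among 6 whose brightest probe set was bright enough to be tested. That required a mean log2 value over the 4 arrays of at least 4.98, the 40th percentile of all probe sets. The sixth, Jag1, did not pass, so 0 of the 6 were called lower by limma, although 1, Jag1, was lower at an unadjusted p under 0.05. Notch3, Notch4, Dll1 and Hey1 lay below the filter. Of the 6, Lfng passed this filter only through its Med1-/- arrays and Jag1 only through its Med1+/+ arrays (mean log2 values of 4.66 in Med1-/- cells and 5.77 in Med1+/+ cells), so these counts describe the genes and support nothing about the group. Over all features tested the median size of a log2 change was 0.84.

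A second fit tested every probe set with no filter, and it gave values for the dim genes and for the second probe sets. In it 43.2% of 22626 probe sets passed, 21.4% higher and 21.8% lower in Med1-/- cells. Of the 17 Notch probe sets, 7 were higher, 2 lower and 8 did not pass. For 13 of the 17 the values of the genotypes did not overlap, as was the case for 70.2% of all probe sets. In the deposited intensities 6 of the 17 did not overlap, against 61.5% of all probe sets. The plot of the Notch genes by array shows the values, and the plot of the probe sets shows each log2 change with its error.

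**Figure D1:**
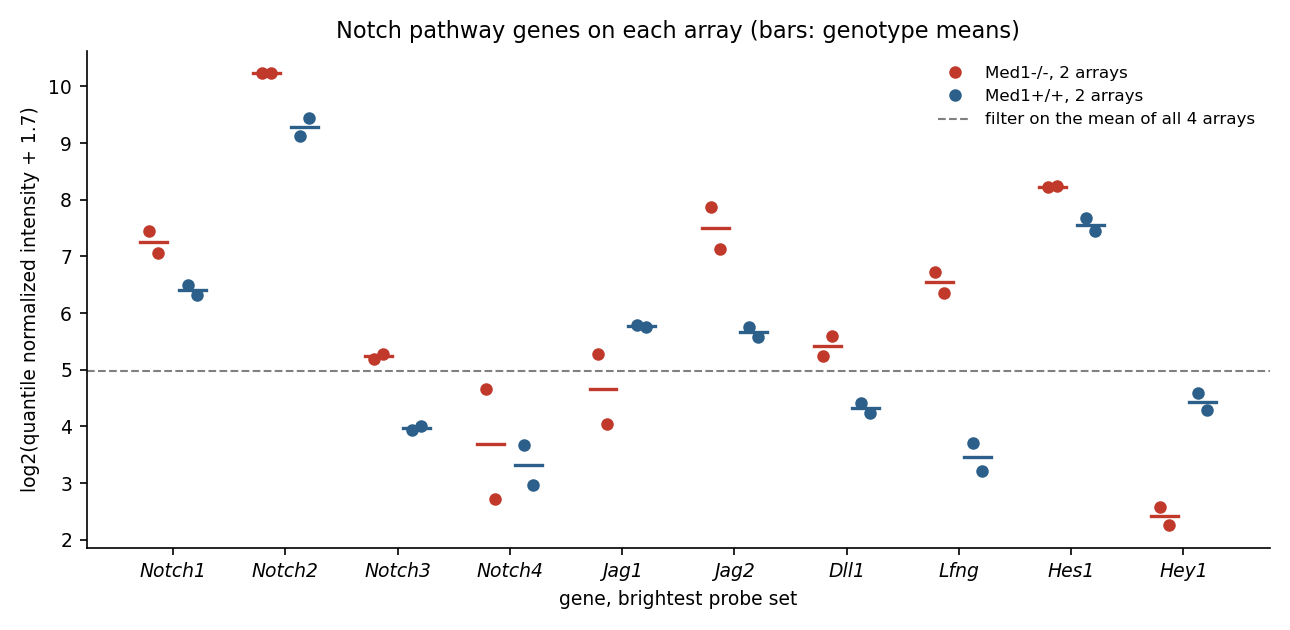
Each point is 1 array, red for Med1-/- and blue for Med1+/+, with log2(quantile normalized intensity + 1.7) on the vertical axis and the brightest probe set of each gene on the horizontal axis. Short bars are means of 2 arrays and the dashed line is the filter at 4.98; heights are comparable within a gene, not between genes. Only Notch4 has overlapping genotypes, and Lfng has the widest gap between them.

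**Figure D2:**
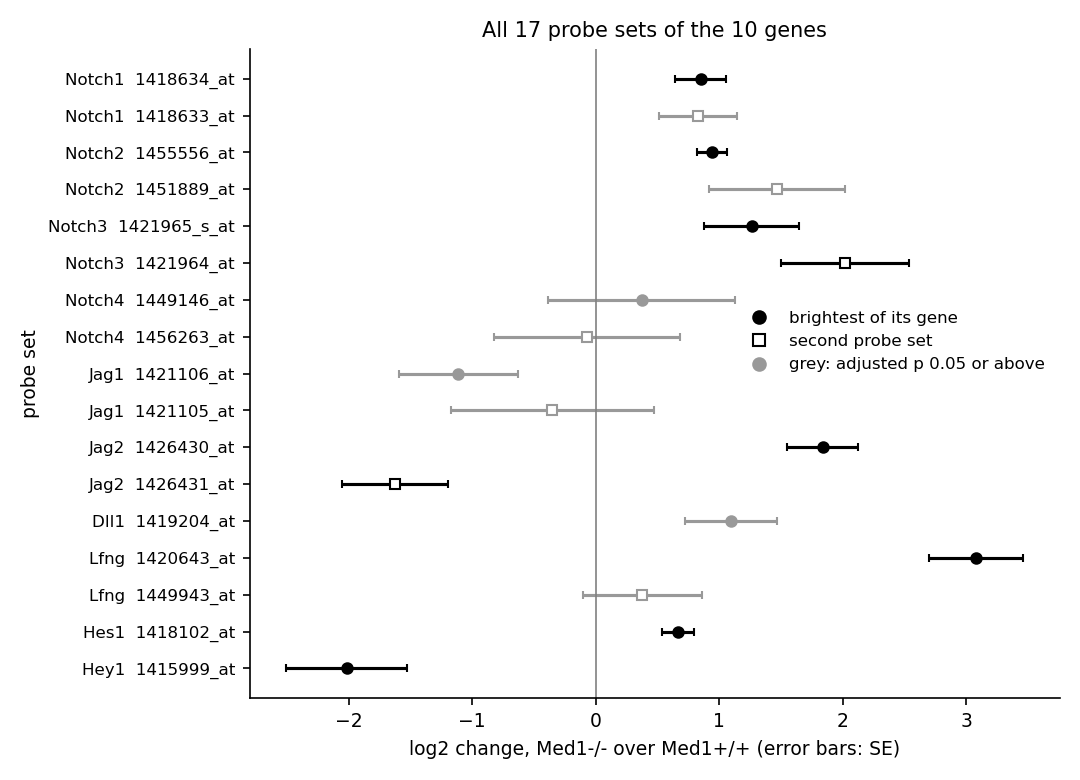
The log2 change (Med1-/- over Med1+/+) of all 17 probe sets is drawn with its standard error from the fit of every probe set without a filter. The probe sets of Jag2 lie on opposite sides of 0, at 1.84 and -1.63, and those of Notch1, Notch2 and Notch3 lie on the same side.

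Among the receptor genes, Notch1 and Notch2 were higher in Med1-/- cells relative to the other genes of the array, though both were below 0 on the Bacillus subtilis scale. Notch1, the receptor best known from T cell and vascular development, had normalized intensities of 174 and 132 in Med1-/- cells, against 89.0 and 77.9 in Med1+/+ cells. Its log2 change was 0.85 with a standard error of 0.19 (2 arrays per genotype, adjusted p = 0.00579, limma). The second Notch1 probe set, 1418633_at, ran the same way, at 59.1 and 70.0 in Med1-/- cells and 29.3 and 42.8 in Med1+/+ cells, with a log2 change of 0.83 that did not pass in the fit without a filter (adjusted p = 0.081). After quantile normalization both Notch1 probe sets thus had each Med1-/- array above each Med1+/+ array. In the deposited intensities the genotypes overlapped on both.

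Notch2, a receptor that is widely expressed in mesenchyme, had normalized intensities of 1199 and 1197 in Med1-/- cells, against 560 and 690 in Med1+/+ cells. Its log2 change was 0.94 (SE 0.13, adjusted p = 0.00055, limma). After normalization the Med1-/- arrays were nearly equal and both Med1+/+ arrays lay lower. In deposited intensities the genotypes overlapped, at 731 and 1073 in Med1-/- cells and 595 and 1031 in Med1+/+ cells. The second Notch2 probe set, 1451889_at, was dim, at 11.8 and 22.3 in Med1-/- cells and 3.68 and 6.15 in Med1+/+ cells (log2 change 1.47, adjusted p = 0.079 without a filter).

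Notch3, which is known as the receptor of vascular smooth muscle cells and pericytes, was below the filter on both probe sets. The brighter one, 1421965_s_at, had normalized intensities of 34.7 and 37.3 in Med1-/- cells, against 13.6 and 14.4 in Med1+/+ cells. Its log2 change was 1.26 (SE 0.39, adjusted p = 0.0408 in the fit without a filter). The dimmer one, 1421964_at, had 15.1 and 10.3 in Med1-/- cells and 1.28 and 2.43 in Med1+/+ cells, a log2 change of 2.02 (adjusted p = 0.0221). Both probe sets therefore rose after quantile normalization, and on both the genotypes were then apart. On the brighter one the genotypes overlapped in the deposited intensities, and its log2 change on the Bacillus subtilis scale was -0.43. An identifier ending in _s_at can match transcripts of other genes, which also applies to the probe sets of Acta2, Dlk1, Maml1 and Aph1a used below. Those of Hes6 and Dtx2 end in _x_at, and whether they match other genes was not examined.

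Smooth muscle and pericyte markers, kept as 1 list, are given beside Notch3. Of 12 such genes, all on the array, 9 were tested. After quantile normalization 8 were higher in Med1-/- cells and 0 were lower (adjusted p under the threshold in limma), against 39.1% and 36.2% of all features. Cspg4, the 1 not called, had a log2 change of -0.43. Of the 3 below the filter, Rgs5 had -0.12 with overlapping genotypes, Myocd 0.95 and Myh11 3.59. Lmod1, among the 8, passed the filter only through its Med1-/- arrays (mean log2 values of 5.77 in Med1-/- cells and 4.30 in Med1+/+ cells). The summed normalized intensity of the 12 genes was 32052 and 30105 in Med1-/- cells, against 14291 and 13907 in Med1+/+ cells. Acta2, the smooth muscle actin gene, had a log2 change of 0.70, Tagln 1.15 and Cnn1, which encodes calponin, 4.09. In bulk samples more cells of a type and more RNA per cell cannot be told apart, and the part of these markers in the Notch3 result was not tested.

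Notch4, the receptor of endothelial cells, was dim on both probe sets, and its genotypes overlapped. On 1449146_at the normalized intensity was 23.6 and 4.90 in Med1-/- cells and 11.1 and 6.10 in Med1+/+ cells, and on 1456263_at it was 14.8 and 3.35 in Med1-/- cells and 4.90 and 12.3 in Med1+/+ cells. The log2 changes were 0.37 (SE 0.76) and -0.07 (SE 0.75), with adjusted p-values of 0.736 and 0.952 without a filter. The Med1-/- arrays differed from each other more than the genotype means did, so no difference was detectable here. Of 14 endothelial markers 12 were below the filter. The summed normalized intensity of the list was 270 and 252 in Med1-/- cells and 176 and 162 in Med1+/+ cells. In deposited intensities the sums overlapped, at 151 and 197 in Med1-/- cells and 192 and 250 in Med1+/+ cells. The 2 tested were Eng, with a log2 change of 0.82 (adjusted p = 0.00784, limma), and Kdr, with 0.28 (adjusted p = 0.53, limma). Both had overlapping genotypes in the deposited intensities. Among the defining genes of the list, Pecam1, Cdh5 and Vwf had deposited intensities between 0.3 and 18.0 on the 4 arrays.

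The ligand genes differed in direction. Jag2, a Jagged family ligand, gave opposite results on its probe sets. On the brighter one, 1426430_at, the normalized intensity was 233 and 138 in Med1-/- cells, against 52.1 and 45.9 in Med1+/+ cells, a log2 change of 1.84 (SE 0.27, adjusted p = 0.00074, limma). On the other, 1426431_at, it was 16.8 and 9.78 in Med1-/- cells, against 41.6 and 45.0 in Med1+/+ cells, a log2 change of -1.63 (SE 0.43, adjusted p = 0.0236 in the fit without a filter).

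Neither probe set had overlapping genotypes, so each was clear within itself, and the direction for Jag2 depends on which is read. With the median of both probe sets the log2 change was 0.11 (adjusted p = 0.76). Where on the Jag2 transcripts each probe set lies is not analysed here. The opposite directions were present in the deposited intensities too: 131 and 108 in Med1-/- cells against 58.7 and 72.4 in Med1+/+ cells on 1426430_at, and 10.0 and 8.2 in Med1-/- cells against 46.4 and 70.9 in Med1+/+ cells on 1426431_at.

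Jag1, the other Jagged ligand, did not pass the test in the main comparison. Its brighter probe set, 1421106_at, had normalized intensities of 37.3 and 14.7 in Med1-/- cells, against 53.5 and 52.5 in Med1+/+ cells. The log2 change was -1.11 (SE 0.44, adjusted p = 0.0532, limma). It passed as lower in the values as deposited (-2.05) and with 75th percentiles set equal (-1.22). The same held on both control-based scales (-2.06 and -2.84), with a pseudocount of 16 (-0.77) and with the replicate number as a block. It did not pass with medians set equal (-1.04), with no intensity trend, with no filter or with every probe set tested. Both Med1-/- arrays were below both Med1+/+ arrays, but they differed from each other by more than the Med1+/+ arrays did. Without Med1-/- replicate 1 the change was -1.78 and passed (adjusted p = 0.00119), and without Med1-/- replicate 2 it was -0.49 and did not (adjusted p = 0.132). The second Jag1 probe set, 1421105_at, had overlapping genotypes, at 3.95 and 9.93 in Med1-/- cells and 3.35 and 19.5 in Med1+/+ cells (log2 change -0.35, adjusted p = 0.772 without a filter).

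Dll1, a Delta-like ligand that signals in somite formation, lay just below the filter, with a mean log2 value of 4.87. Its normalized intensity was 36.0 and 46.7 in Med1-/- cells, against 19.6 and 17.1 in Med1+/+ cells. The log2 change was 1.09 (SE 0.37) and missed the threshold in the fit without a filter (adjusted p = 0.0582, limma). With each gene summarised by the median of its probe sets, Dll1 passed as higher (adjusted p = 0.0195, limma). Its 1 probe set kept the same values there, and only the filter and the other features tested had changed. The genotypes did not overlap on this probe set after normalization, whereas in the deposited intensities they did. On the Bacillus subtilis scale the change of Dll1 was -0.63.

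Jagged ligands are also expressed in epithelia. Of 12 epithelial markers 6 were tested, of which 5 were lower and 1 higher in Med1-/- cells, against 36.2% and 39.1% of all features. Dsg2, 1 of the 5, passed the filter only through its Med1+/+ arrays (mean log2 values of 4.06 in Med1-/- cells and 8.45 in Med1+/+ cells). The summed normalized intensity of the 12 markers was 2383 and 2754 in Med1-/- cells, against 5073 and 5245 in Med1+/+ cells. Krt18 and Cdh1, which encode a keratin and E-cadherin, had log2 changes of -4.45 and -4.50, while the keratin gene Krt19 had 1.61. The defining marker Epcam was between 1.4 and 4.4 in deposited intensity on the 4 arrays. The part of these markers in the ligand results was not tested.

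Lfng had the largest change of the 10 genes after quantile normalization, whereas in the values as deposited and on both control-based scales that of Hey1 was larger. Lfng encodes lunatic fringe, which adds N-acetylglucosamine to O-fucose on the receptor and is known to favour Delta-like over Jagged ligands. On its brighter probe set, 1420643_at, the normalized intensity was 104 and 80.0 in Med1-/- cells, against 11.3 and 7.63 in Med1+/+ cells. The log2 change was 3.08, or 8.45-fold (SE 0.34, adjusted p = 0.000236, limma). With a pseudocount of 16 it was 2.08. Both Med1-/- arrays were far above both Med1+/+ arrays, and the deposited intensities, 55.8 and 61.4 in Med1-/- cells against 12.1 and 11.1 in Med1+/+ cells, were also apart.

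Lfng passed the filter narrowly, with a mean log2 value of 5.0, and it passed only through the Med1-/- arrays, so that passing at all required a difference. It fell below the filter in 9 of 18 alternative settings, among them the removal of Med1-/- replicate 1 or of Med1-/- replicate 2. Over the 6 scalings compared the change stayed between 1.38 and 3.15. The second Lfng probe set, 1449943_at, was near the pseudocount on all arrays, at 0.975 and 2.43 in Med1-/- cells and 0.675 and 1.05 in Med1+/+ cells (log2 change 0.38, adjusted p = 0.581 without a filter).

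The promoter of Lfng is shown because it alone among the Notch promoters searched held the core letters of the RBPJ motif. Windows from 250 bases before to 50 bases after the start were taken from RefSeq (GRCm38.p6) for the 8 genes the table lists, all but Hes1 and Hey1, with 2 windows for Dll1. The motif searched was TGGGAA on both strands. It was found in 1 of the 9 windows, against 25.6% of the 32851 windows of all genes. In the Lfng window it occurred once on each strand, as did at least 1 match per strand in 1.81% of all windows. The 250 bases before the start, at chr5:140607091-140607340 on the plus strand, are printed 5′ to 3′ with the matches in capitals.
Lfng promoter: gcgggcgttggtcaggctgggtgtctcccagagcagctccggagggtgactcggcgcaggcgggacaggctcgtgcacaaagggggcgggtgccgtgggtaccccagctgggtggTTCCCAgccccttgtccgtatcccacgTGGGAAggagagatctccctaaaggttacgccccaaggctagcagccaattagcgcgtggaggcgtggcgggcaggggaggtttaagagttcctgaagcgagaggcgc
The first match, on the minus strand, begins 135 bases before the start and the second, on the plus strand, 108 bases before it. A match of these letters is a description of the sequence and not evidence of binding.

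After quantile normalization the target genes Hes1 and Hey1 differed in direction. In the values as deposited and on both control-based scales, both were below 0, Hes1 at -0.25, -0.27 and -1.11. Hes1, a repressor that is the most widely used readout of Notch signalling, had normalized intensities of 296 and 299 in Med1-/- cells, against 202 and 173 in Med1+/+ cells. Its log2 change was 0.67 (SE 0.13, adjusted p = 0.00334, limma), the smallest of the 5 that passed. The genotypes did not overlap after normalization, whereas in deposited intensities they did, at 169 and 249 in Med1-/- cells and 223 and 269 in Med1+/+ cells.

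Hey1, a related repressor known from heart and vessel development, was lower in Med1-/- cells. Its 1 probe set, 1415999_at, had normalized intensities of 4.28 and 3.08 in Med1-/- cells, against 22.3 and 17.8 in Med1+/+ cells. The log2 change was -2.02 (SE 0.49, adjusted p = 0.0176 in the fit without a filter). In deposited intensities it was 2.60 and 2.70 in Med1-/- cells and 24.3 and 27.2 in Med1+/+ cells, so the genotypes were apart on either scale. With a pseudocount of 16 the change was -0.87, since the Med1-/- values lay close to the floor of the array. A test of the difference between the changes of Hes1 and Hey1 was not made.

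The scaling of the arrays set the sign of the moderate changes, as the plot of the 6 scalings shows. Over all features tested, the median log2 change came to 0.09 after quantile normalization, 0.11 with 75th percentiles set equal and 0.30 with medians set equal. Without any scaling it was -0.76, with the hybridisation controls set equal -0.77 and with the Bacillus subtilis controls set equal -1.61. Notch1 and Hes1, higher after quantile normalization, were at -0.16 and -0.25 in the values as deposited and at -1.0 and -1.11 on the Bacillus subtilis scale. Notch2 was at 0.18 and -0.68 on those 2 scales, and Jag2 on its brighter probe set at 0.85 and 0.00.

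Apart from quantile normalization, the scalings multiply each array by 1 factor or leave it as it is, which shifts all but dim genes nearly alike. The position of a gene relative to the median of all features therefore moves little by construction. The ranges below describe that position and do not test it. Over the 6 scalings Lfng lay 2.85 to 2.99 above that median, Jag2 1.6 to 1.75 above, Notch3 1.05 to 1.18 above and Notch2 0.85 to 0.94 above. Dll1 was 0.87 to 1.01 above, Notch1 0.59 to 0.76, Hes1 0.50 to 0.58 and Notch4 0.28 to 0.61. Jag1 ranged from -1.34 to -1.20 and Hey1 from -2.11 to -1.69. Lfng, Jag1 and Hey1 kept the sign of the change itself under all 6 scalings, as did the brighter Jag2 probe set, which was at 0 to 2 decimals on the Bacillus subtilis scale.

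**Figure D3:**
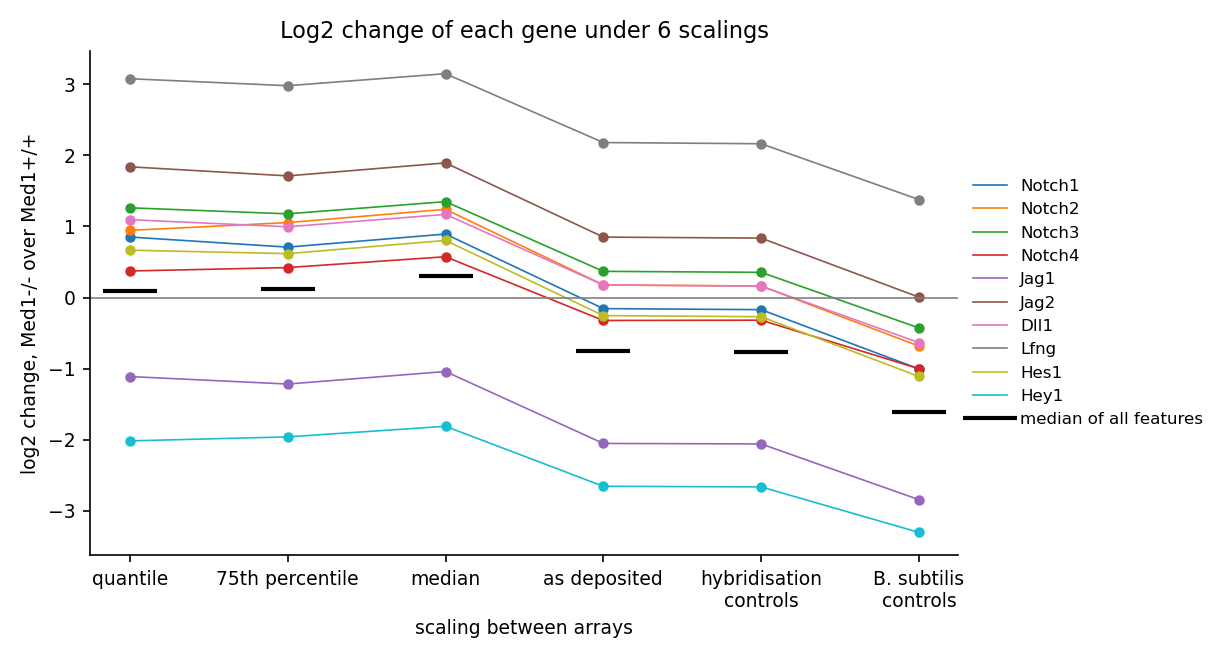
The log2 change (Med1-/- over Med1+/+) of the brightest probe set of each gene is plotted under 6 scalings between arrays; lines join the points of a gene and black bars are the median of all features tested. The genes shift together with the median, Lfng stays above 0 and Jag1 and Hey1 stay below 0 under all 6.

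Around these genes, 89 other genes of the Notch pathway were listed in 7 groups by role. Of them 73 were on the array and 54 were tested: 24 were higher in Med1-/- cells, 17 lower and 13 did not pass. That is 44.4% higher and 31.5% lower, near the 39.1% and 36.2% of all features. Their median log2 change was 0.45. The named risers below were all higher after quantile normalization, but on the Bacillus subtilis scale all of them except Furin and Fhl1 were below 0, and those 2 did not pass there.

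Of 8 other ligands and ligand-like proteins 3 were tested, with 1 higher and 1 lower, against 39.1% and 36.2% of all features. Dlk1, a ligand-like membrane protein of preadipocytes and stroma, had normalized intensities of 39.98 and 49.7 in Med1-/- cells, against 452 and 400 in Med1+/+ cells (log2 change -3.20, SE 0.17, adjusted p = 3.15e-05, limma). Its paralogue Dlk2 was higher by 0.65 after quantile normalization and below 0 in the values as deposited and on both control scales, and it did not pass without Med1+/+ replicate 2 (adjusted p = 0.0811, limma). Of 5 fringe and sugar-transfer genes on the array, 4 were tested. Radical fringe, Rfng, had 540 and 484 in Med1-/- cells, against 200 and 189 in Med1+/+ cells, a log2 change of 1.39. Its other probe set did not pass (0.06, adjusted p = 0.958 without a filter), and the median of both did not pass (0.72, adjusted p = 0.102, limma). Poglut1, which adds O-glucose to the receptor, and Eogt, which adds O-linked N-acetylglucosamine, were lower, with log2 changes of -1.27 and -0.69, and Eogt did not pass without Med1+/+ replicate 1 (adjusted p = 0.0561, limma).

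Of 7 genes tested for the proteases that cut Notch, 3 were higher and 2 lower, against 39.1% and 36.2% of all features. Furin, which cuts the receptor during its transport to the surface, had 452 and 358 in Med1-/- cells, against 76.0 and 104 in Med1+/+ cells (log2 change 2.15, SE 0.20, adjusted p = 0.000113, limma). Adam10 and Adam17, which encode the proteases that cut the ligand-bound receptor outside the membrane, were lower. Adam10 had 735 and 1028 in Med1-/- cells, against 2015 and 2532 in Med1+/+ cells, a log2 change of -1.38, and Adam17 had a log2 change of -1.06. Each also had a probe set that did not pass, at -0.56 for Adam10 and -0.54 for Adam17. Aph1a, a subunit of gamma-secretase, which then cuts within the membrane, was higher by 1.37.

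In the nucleus, Rbpj, the DNA-binding partner of the receptor, had 347 and 389 in Med1-/- cells and 448 and 414 in Med1+/+ cells, a log2 change of -0.23 that did not pass (SE 0.12, adjusted p = 0.123, limma); it was named after its values were seen. Of 6 nuclear complex and coactivator genes tested 3 were higher and 2 lower, against 39.1% and 36.2% of all features. The coactivator gene Maml1 had 879 and 1127 in Med1-/- cells, against 468 and 494 in Med1+/+ cells (log2 change 1.05), and the acetyltransferase genes Kat2a and Crebbp had log2 changes of 1.36 and 0.86. Crebbp was below 0 in the values as deposited and on both control scales. Snw1, which encodes a nuclear cofactor of Notch, had a log2 change of -0.95.

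Of 13 genes listed as corepressors at RBPJ targets, 7 were higher and 4 lower, against 39.1% and 36.2% of all features. Spen, a large corepressor that binds RBPJ, had 160 and 142 in Med1-/- cells, against 52.8 and 43.6 in Med1+/+ cells (log2 change 1.62). Fhl1, a LIM protein with an RBPJ-binding isoform, and Tle5, a short Groucho family member, had log2 changes of 1.52 and 1.30. The histone demethylase gene Kdm5a was lower, at 49.6 and 49.2 in Med1-/- cells and 192 and 188 in Med1+/+ cells (log2 change -1.91).

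Of 15 other Hes, Hey and target genes, 10 were below the filter and 5 were tested. Ccnd1, the cyclin D1 gene, was lower, at 892 and 887 in Med1-/- cells and 1512 and 1612 in Med1+/+ cells (log2 change -0.81, adjusted p = 0.000336, limma). Its other probe sets had -0.55, which passed in the fit without a filter, and -0.17, which did not (adjusted p = 0.442). Hes6 and Bhlhe40 were higher by 0.46 and 0.48 after quantile normalization and below 0 in the values as deposited and on both control scales. Leaving out 1 array ended the call of Hes6 in 3 of 4 cases, all but that without Med1-/- replicate 1 (adjusted p = 0.0739 to 0.102, limma). It ended that of Bhlhe40 without Med1-/- replicate 1 and without Med1+/+ replicate 2 (0.126 and 0.147). The other Hes6 probe set did not pass (0.68, adjusted p = 0.187 without a filter). Among the dim genes, chosen after their values were seen, Nrarp, a feedback inhibitor induced by Notch, had 57.4 and 38.0 in Med1-/- cells and 16.5 and 14.8 in Med1+/+ cells. Heyl had overlapping genotypes, at 15.3 and 27.2 in Med1-/- cells and 18.8 and 23.2 in Med1+/+ cells.

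Genes of endocytosis, ubiquitination and turnover had 7 higher and 5 lower of 16 tested, against 39.1% and 36.2% of all features. Nedd4l and Nedd4, which encode related ubiquitin ligases, moved in opposite directions, with log2 changes of 1.5 and -1.58, although the other Nedd4l probe set did not pass (0.10, adjusted p = 0.902 without a filter). Nedd4 had 1106 and 881 in Med1-/- cells, against 3099 and 2798 in Med1+/+ cells. Dtx2, a Deltex family ligase gene, and Numbl, which encodes a relative of the Notch antagonist Numb, had log2 changes of 1.38 and 1.28. Cdk8 and Ccnc, named after their values were seen, encode the kinase and cyclin of the Mediator kinase module, which is known to phosphorylate the intracellular part of Notch. They had log2 changes of -0.44 and -0.90 (adjusted p = 0.00656 and 0.00128, limma).

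**Figure D4:**
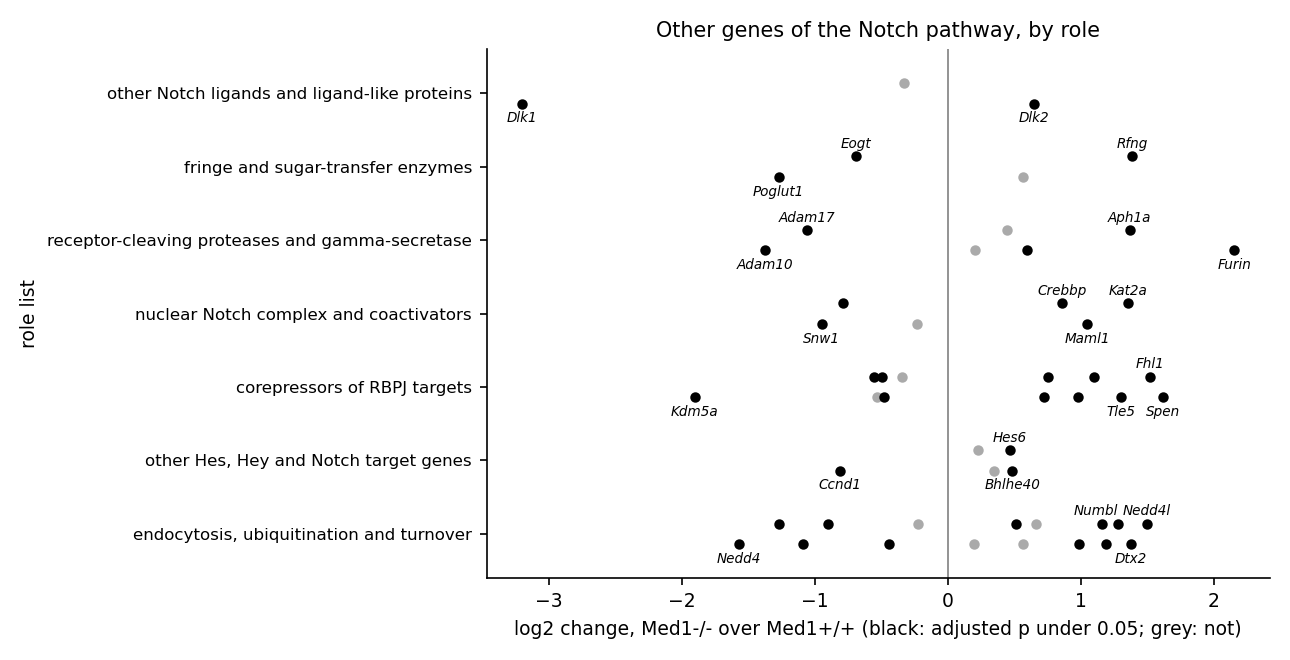
Each point is 1 of the 54 tested genes of the 7 role groups, placed by its log2 change (Med1-/- over Med1+/+) and drawn in black where the adjusted p was under 0.05 and grey otherwise; the small vertical offset only separates the points. Every group holds black points on both sides of 0, from Dlk1 at -3.20 to Furin at 2.15.

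Of the other marker lists, 1 of 3 blood markers tested passed as higher in Med1-/- cells, against 39.1% of all features. It was Cd34, with a log2 change of 0.49. The leukocyte gene Ptprc was between 0.1 and 7.2 in deposited intensity. Of 10 neural markers on the array 8 were below the filter, while Tubb3 and Nes, both also expressed outside the nervous system, were higher by 1.84 and 2.08. Of 12 fibroblast and mesenchyme markers tested 6 were higher and 3 lower, against 39.1% and 36.2% of all features. The part of these lists in the Notch results was not tested.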

How the data were processed

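Total RNA, 50 ng per sample, received a biotin label during in vitro transcription (3' IVT Express Kit, Affymetrix), per the labels' protocols. The table the authors deposited gives 1 linear intensity per probe set and array. Background correction, summarisation and scaling are not given in the sources used here, nor are detection calls. Control probe sets (64) were left out, and 22626 were quantile normalized and log2 transformed after adding a pseudocount of 1.7, the 10th percentile of the table. A fold change on this log2(value + pseudocount) scale is too small for dim genes. Symbols came from the platform annotation, updated by Entrez identifier (RefSeq, GRCm38.p6): 20380 probe sets had 1 symbol, 691 several and 1555 none.

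Probe sets with a mean below the 40th percentile (9050) were left out, and the brightest probe set stood for a gene. Each probe set of the 10 Notch genes is given. The genotypes were tested two-sided with R 4.3.3 and limma 3.58.1 (lmFit and trended eBayes). P-values over the 8923 features were adjusted by Benjamini-Hochberg and called at 0.05. Second probe sets and genes below the filter took their standard errors and adjusted p-values from a fit of all 22626 probe sets, chosen after seeing the data. The procedure was tested on simulated data. The Notch genes and all lists were chosen with earlier results of these data known. Named besides the 10 genes were Med1, up to 4 called genes of largest change in each role list and up to 3 brightest markers of a list, other names being chosen after their values were seen. For the 14 named pathway genes with further probe sets, 0 had another that passed in the opposite direction. Figures used matplotlib 3.10.9 in Python 3.11.15.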

Additional observations from a re-analysis of the deposited data

How the results depend on the processing

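Of 18 alternative settings, the scaling of the arrays moved the results most. The count of Notch genes higher in Med1-/- cells was 5, and it was 0 without scaling (as deposited), 1 with the hybridisation controls set equal, 0 with the Bacillus subtilis controls set equal, 2 with the filter at the 60th percentile and 2 with a 2-fold minimum. The count lower was 0, and it was 4 on the Bacillus subtilis scale and 1 in the values as deposited, with 75th percentiles set equal, on the hybridisation controls, with no filter, with a pseudocount of 16, with the replicate block and with every probe set tested without a filter; leaving out 1 array gave 0 to 1, the 1 being without Med1-/- replicate 1. Where 1 gene was called lower, it was Hey1 in the fits without a filter and Jag1 in the other settings. For the other pathway genes, 24 were higher, against 1 as deposited, 10 and 0 on the hybridisation and Bacillus subtilis controls and 14 at 2-fold. The 17 lower became 28 and 49 on those controls and 8 at 2-fold. Over all features 3490 were higher, against 265 as deposited, 1177 and 142 on the 2 kinds of control and 1890 at 2-fold; 3232 were lower, against 5340 and 7784 on the controls, 4934 with every probe set tested without a filter and 1715 at 2-fold. Of the calls over all features 51.9% were higher, against 6.45% as deposited, 18.1% on the hybridisation controls, 1.79% on the Bacillus subtilis controls, 52.9% with 75th percentiles and 59.9% with medians set equal.

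Among the genes tested in the main comparison, reversals occurred under the unscaled and control-based settings only. As deposited, then by hybridisation and last by Bacillus subtilis controls, the log2 change was -0.16, -0.17 and -1.0 for Notch1, -0.25, -0.27 and -1.11 for Hes1, -0.12, -0.14 and -0.97 for Crebbp, -0.31, -0.33 and -1.17 for Bhlhe40, -0.50, -0.52 and -1.36 for Hes6, and -0.35, -0.36 and -1.20 for Dlk2. On the Bacillus subtilis controls alone it was -0.68 for Notch2, -0.23 for Spen, -0.46 for Tle5, -0.21 for Nedd4l, -0.30 for Dtx2, -0.57 for Numbl, -0.36 for Rfng, -0.29 for Kat2a, -0.61 for Maml1 and -0.28 for Aph1a. Over the tested Notch genes and the 24 pathway genes picked by size of change, 39 values kept their sign but lost the call. Another 7, all for Jag1, gained it, and 28 reversed in sign, whether called or not. Settings that put a gene below the filter were not counted. Among values not called in the main comparison, the sign also changed on the Bacillus subtilis controls for Notch3 (-0.43) and Dll1 (-0.63), and for the brighter Notch4 probe set as deposited (-0.32), on the hybridisation controls (-0.32), on the Bacillus subtilis controls (-1.0) and without Med1-/- replicate 1 (-0.61). It changed for the second Notch1 probe set under the same 3 scalings, for the second Jag1 probe set without Med1-/- replicate 1 (0.18) and without Med1+/+ replicate 2 (0.64), and for the second Notch4 probe set without Med1-/- replicate 2 (0.80) and without Med1+/+ replicate 2 (0.45), with medians set equal and with a pseudocount of 16. The second Lfng probe set changed sign on the Bacillus subtilis controls. The median of each gene's probe sets ended the calls of Jag2 (adjusted p = 0.76, limma) and Rfng (0.72, adjusted p = 0.102) and put Lfng below the filter. In that setting Dll1, whose 1 probe set kept its values, came above the filter and was called higher (adjusted p = 0.0195, limma). Replicate numbers are shared between genotypes, but the labels do not say that they pair the samples. The deviations of the replicate 1 arrays from their genotype means correlated at 0.27 over the 8923 features. With 2 arrays per genotype, those of replicate 2 are their exact opposites and add nothing. The replicate block moved the calls over all features from 6722 to 7325 and gave Jag1 an adjusted p of 0.0098 (limma). Whether samples with the same number share an effect was not tested. Dim probe sets limit what can be read for Notch3, Notch4, Dll1 and Hey1.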
